A study of Mus musculus with 8 samples.

Results

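The Reg family is a group of small secreted C-type lectin-like proteins named after regenerating pancreatic tissue. Its 7 members measured here, Reg1, Reg2, Reg3a, Reg3b, Reg3d, Reg3g and Reg4, were chosen by symbol, as all probes whose RefSeq accession maps to one of them. They are 7 of 22911 genes on the array, carried by 8 of 56605 probes. The samples were islets isolated from male mice aged 11 weeks, with 150 islets in each RNA extraction. The βFbln5KO mice carry floxed Fbln5 alleles and Ins1-cre, in which the mouse insulin 1 promoter drives Cre, so that the deletion is aimed at beta cells. The control mice carry the floxed alleles as well and are not said to carry Ins1-cre. The transgene and the deletion therefore cannot be told apart in this comparison. RNA of 4 extractions per group was hybridised to 8 Agilent one-colour arrays. The other cells of the islet and any exocrine tissue that stays attached were measured with the beta cells.

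In the pancreas, Reg proteins are made largely by acinar cells, the exocrine cells that secrete digestive enzymes, and several members are strongly induced by injury, inflammation and regeneration. Members of the family have also been described in islets of stressed or diabetic animals. Since isolated islets can carry acinar tissue, each Reg signal is given here beside those of Prss2, a trypsinogen, and Cpa1, carboxypeptidase A1, which are acinar enzymes. All values are log2 signals relative to the 75th percentile of the array, which is set at 0, and a probe is called detected where the scanner software marked it as well above background. Fewer cells of a type and less RNA per cell cannot be told apart in such bulk samples, and nothing in the labels says whether the extractions came from separate mice, so that the p-values measure the spread between these arrays.

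The probe of Fbln5, the targeted gene, gave log2 signals of −1.70, −1.32, −2.05 and −1.83 on control arrays 1 to 4 and of −2.74, −2.40, −2.38 and −1.37 on the arrays labelled βFbln5KO 1 to 4. The first 3 of the latter lay below all controls, while the array labelled βFbln5KO 4 lay within the control range. Whether the probe lies in the deleted part of the gene is not given in the sources used here. The difference was −0.50 (SE 0.29) with an adjusted limma p of 0.342. The 10 beta cell markers were detected on all 8 arrays, with a mean of 5.58 to 5.67 on control arrays and of 5.49 to 5.60 on βFbln5KO arrays. The array labelled βFbln5KO 4 stood apart in genes of hepatocytes, in a list drawn up after this was noticed. The list mean was 1.33 there and between −4.12 and −3.69 on the 7 other arrays, with 15 of 16 genes highest on it. Alb, the gene of albumin, had a log2 signal of 3.25 on that array and of −6.49 to −3.57 elsewhere. The group difference of each detected Reg member and the relations between members are therefore also given without that array. Each genotype filled 1 row of the slide, and the row and the genotype therefore cannot be told apart.

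6 of the 7 Reg members had a lower mean signal in βFbln5KO than in control islets, and none passed the adjusted limma threshold. The log2 difference was −1.36 for Reg1, −1.88 for Reg2 and −1.76 for Reg3d, which were detected on all 8 arrays, and −1.43 for Reg3b, detected on 6. Reg3a and Reg3g were detected on no βFbln5KO array and have only bounds. The share of spots well above background was 56.64% to 58.83% on control arrays and 52.63% to 56.57% on βFbln5KO arrays, and its part in these detection calls was not tested. In 22911 genes, 3 passed it, or 0.0131%. At an unadjusted limma p under 0.05, Reg2 and Reg3g were lower and Reg4 was higher, against 2.68% of all genes that were lower and 16.8% that were higher. Of the 3 members detected on all 8 arrays, Reg1, Reg2 and Reg3d, only Reg2 was called lower, against 3.08% of the 13650 genes detected on all 8 arrays, and none was called higher, against 1.01%. The median difference of the 3 members detected on all 8 arrays was −1.76. Over all 7 it was −1.51, a value that counts fitted differences of undetected members, beside 0.02 for all genes. No Reg member had all βFbln5KO arrays below all control arrays, a pattern that 1.76% of genes showed. The groups overlapped for every member. For Reg1 and Reg3d the overlap came from the array labelled βFbln5KO 4 alone.

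**Figure D1:**
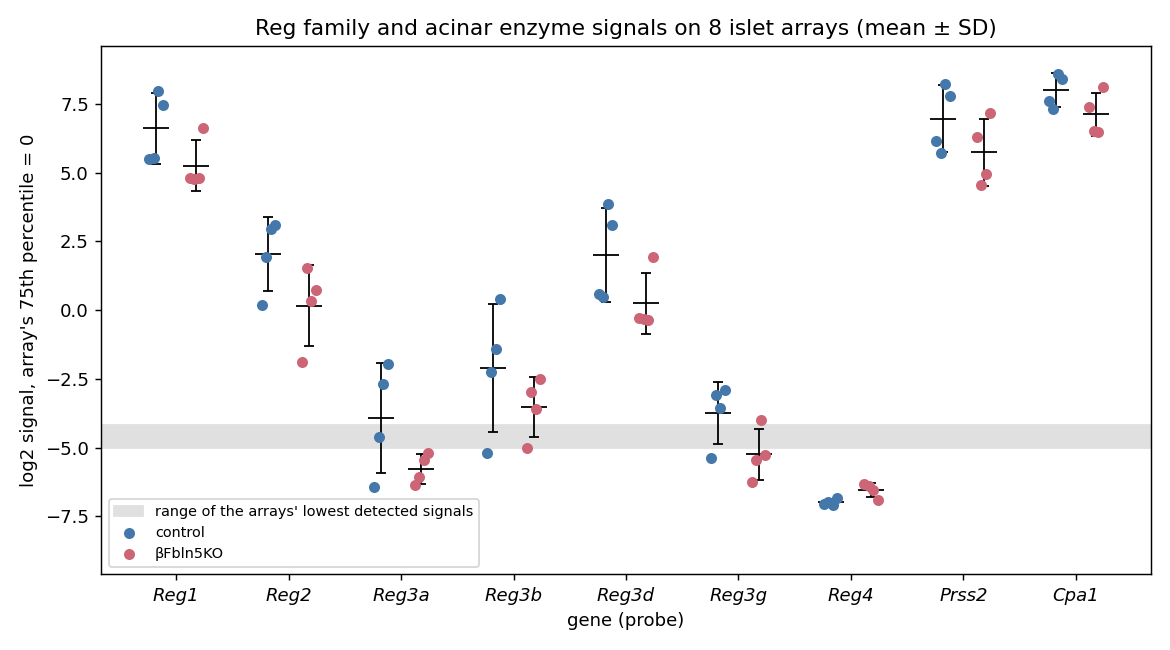
Log2 signals of the 7 Reg members and of the acinar enzymes Prss2 and Cpa1 on 4 control (blue) and 4 βFbln5KO (red) arrays, with the 75th percentile of each array at 0. Lines and bars give the mean and SD of 4 arrays, and the grey band spans the lowest detected signals of the arrays, from −5.01 to −4.19. Reg4 lies below the band on all 8 arrays, and in no gene are the 4 βFbln5KO arrays all below the 4 control arrays.

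Reg1, also known as lithostathine or pancreatic stone protein, is a product of acinar cells that is secreted into pancreatic juice. Its log2 signals were 5.49, 5.52, 7.97 and 7.46 on control arrays 1 to 4 and 4.79, 4.78, 4.80 and 6.63 on the arrays labelled βFbln5KO 1 to 4. Control arrays 3 and 4 were high, and the first 3 βFbln5KO arrays lay close together below every control, with the fourth between both pairs of controls. The means were 6.61 ± 1.29 (SD, n = 4) and 5.25 ± 0.92 (SD, n = 4), which gave a 2.57-fold lower signal in βFbln5KO, or a log2 difference of −1.36 (SE 0.66). The adjusted limma p was 0.252 and the exact two-sided permutation p was 0.171, where 0.0286 is the smallest that 4 against 4 arrays allow. Without the array labelled βFbln5KO 4 the difference was −1.82, with an adjusted limma p of 0.103, and without control array 3 it was −0.91 (limma adjusted p = 0.455).

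Reg3d, a member with sequence similarity to the islet neogenesis-associated protein INGAP, was measured by 2 probes. The brighter one gave 0.60, 0.48, 3.84 and 3.08 in control and −0.27, −0.32, −0.36 and 1.92 in βFbln5KO. The arrays that were high and low were those that were high and low for Reg1. The log2 difference was −1.76 (SE 0.85), or 3.38-fold lower in βFbln5KO, with an adjusted limma p of 0.252 and an exact permutation p of 0.171. The second probe gave −1.79 (SE 0.85). Without the array labelled βFbln5KO 4 the brighter probe differed by −2.32, with an adjusted limma p of 0.118, and without control array 3 by −1.14 (limma adjusted p = 0.455).

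Reg2, a member found in mice and described in regenerating islets and in beta cells under stress, gave log2 signals of 0.18, 1.94, 2.96 and 3.11 in control. On the βFbln5KO arrays its signals were −1.90, 1.52, 0.32 and 0.72. The lowest array of both groups was replicate 1, and only βFbln5KO array 1 lay below all controls. The difference was −1.88 (SE 0.83), or 3.69-fold lower in βFbln5KO, with an unadjusted limma p of 0.0494, an adjusted limma p of 0.201 and an exact permutation p of 0.143. It was −2.07 without the array labelled βFbln5KO 4 (limma adjusted p = 0.234) and −1.19 without βFbln5KO array 1 (limma adjusted p = 0.371), and the unadjusted p rose to 0.0672 and 0.119. The unadjusted call was also lost without control array 2, 3 or 4 or without βFbln5KO array 3, so that it held only without control array 1 or βFbln5KO array 2.

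Reg3a, Reg3b and Reg3g are the inducible members of the family, known for their rise in acinar cells during pancreatitis and in the intestine, where Reg3b and Reg3g act as antibacterial lectins. Their signals lay near the detection limit on many arrays. The lowest detected signal was between −5.01 and −4.79 on control arrays and between −4.70 and −4.19 on βFbln5KO arrays.

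Reg3b, also named pancreatitis-associated protein 1, gave log2 signals of −5.18, −2.24, −1.41 and 0.42 in control and of −5.02, −2.99, −3.60 and −2.50 in βFbln5KO. It was detected on all arrays except replicate 1 of either group, and control array 4 was its highest. The difference was −1.43 (SE 1.07), with an adjusted limma p of 0.498 and an exact permutation p of 0.314. The difference was −2.45 without control array 1 and −0.59 without control array 4. Without the array labelled βFbln5KO 4 it was −1.77, with an adjusted limma p of 0.464.

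Reg3a was detected on 3 control arrays and on no βFbln5KO array. Its log2 signals were −6.43, −4.61, −2.70 and −1.97 in control and −6.35, −6.07, −5.44 and −5.21 in βFbln5KO. Control arrays 3 and 4 stood clear of all the others, and control array 1 was the lowest of the 8. Since all βFbln5KO signals were not well above background, the fold is a bound, taken on each βFbln5KO array against the higher of its lowest detected signal and the probe's own signal. The bound put Reg3a at least 1.36-fold lower in βFbln5KO (1.20-fold with a common floor of −4.19 on every βFbln5KO array). The fitted difference had an adjusted limma p of 0.248. No bound above 1 could be given without control array 4, and the bound was 1.03 without control array 3, 1.26 without the array labelled βFbln5KO 4, and 2.43 without control array 1.

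Reg3g was also detected on 3 control arrays and on no βFbln5KO array. Its log2 signals were −5.36, −3.08, −3.55 and −2.90 in control and −6.24, −5.44, −4.00 and −5.27 in βFbln5KO. Control array 1 lay among the βFbln5KO arrays, and the 3 other controls lay above all of these. The bound put Reg3g at least 1.48-fold lower in βFbln5KO (1.33-fold with the common floor). The fitted difference had an unadjusted limma p of 0.0419, an adjusted limma p of 0.179 and an exact permutation p of 0.0857. The bound was 1.34 without the array labelled βFbln5KO 4, where the unadjusted limma p of the fitted difference was 0.0828 and the adjusted one 0.269. The bound was between 1.22 and 2.15 over the 8 arrays left out in turn, and the unadjusted call held only without control array 1 or βFbln5KO array 3.

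Reg4, a member known from the endocrine and goblet cells of the gut, was not well above background on any of the 8 arrays, where its signal was between −7.07 and −6.33. Its unadjusted limma p of 0.0181 (limma adjusted p = 0.100), in the higher direction, concerns signals below the detection limit, and no fold is given.

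Prss2 gave log2 signals of 6.13, 5.70, 8.22 and 7.77 in control and of 6.28, 4.55, 4.93 and 7.17 in βFbln5KO. Cpa1 gave 7.61, 7.31, 8.59 and 8.41 in control and 7.39, 6.51, 6.47 and 8.10 in βFbln5KO. Control arrays 3 and 4 and the array labelled βFbln5KO 4 were thus the highest for both acinar enzymes and for Reg1 and Reg3d. Prss2 differed by −1.22 (SE 0.72) with an adjusted limma p of 0.356, and Cpa1 by −0.87 (SE 0.42) with an adjusted limma p of 0.253. Over the list of acinar genes, 32 of 35 were measured, and 31 of these had a lower mean in βFbln5KO, with a median difference of −1.11. At an unadjusted limma p under 0.05, 2 of them were lower, Cela1, an elastase, at −0.46 (limma adjusted p = 0.129), and Try4, a trypsinogen, at −0.43 (limma adjusted p = 0.192), and none was higher, against 2.68% and 16.8% of all genes. The count was 23 without the array labelled βFbln5KO 4, where 2.74% of all genes were lower, 18 without control array 2, where 3.5% were, and 0 without control array 3 or 4 or βFbln5KO array 2 or 3. The brightest genes of the list, Cela2a, an elastase, Ctrb1, chymotrypsinogen, and Try5, a trypsinogen, differed by −0.49, −0.81 and −0.56 without being called. These differences, and those of Cela1 and Try4, were nearer 0 than the list median of −1.11. Over the list the differences ran from −1.63 for Cuzd1 to 0.07 for Prss1, both detected on all 8 arrays. The mean of the list ranged from 4.80 to 6.93 over the control arrays and from 4.00 to 6.05 over the βFbln5KO arrays. The part of acinar tissue in the Reg differences was not tested.

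**Figure D2:**
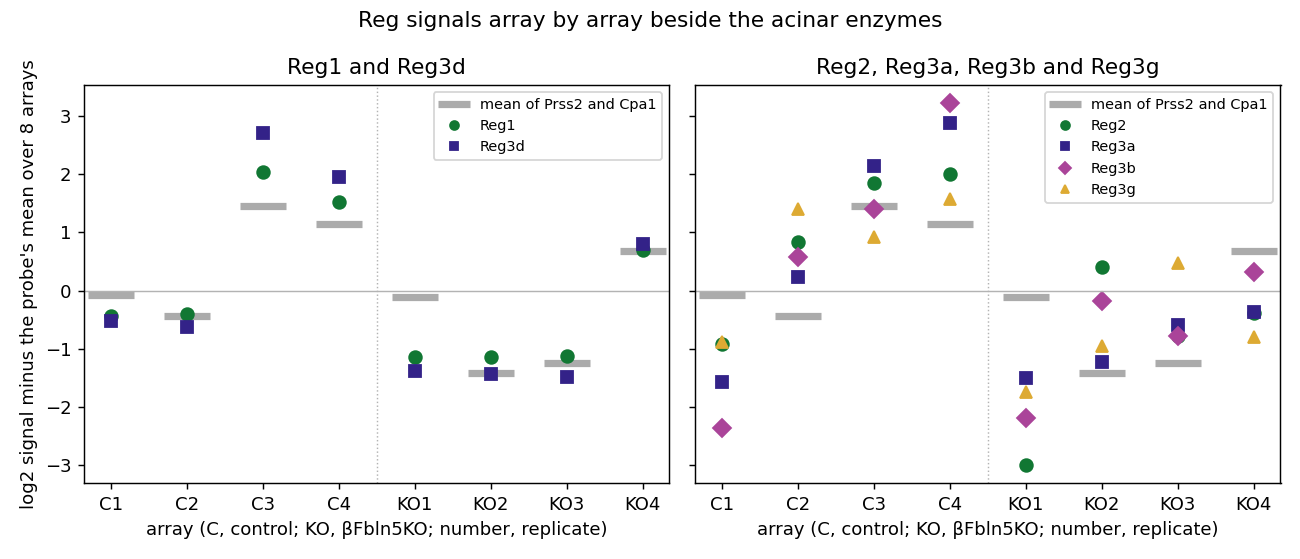
Log2 signal of each gene minus its own mean over the 8 arrays, for control (C1 to C4) and βFbln5KO (KO1 to KO4) arrays, with Reg1 and Reg3d on the left, the other detected members on the right, and the mean of Prss2 and Cpa1 as grey bars in both. Reg1 and Reg3d are above their mean on C3, C4 and KO4, the arrays on which the grey bar is above 0, while of Reg2, Reg3a, Reg3b and Reg3g only Reg3b is above its mean on KO4.

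Array by array, Reg1 and Reg3d moved with the acinar enzymes. Against the mean of Prss2 and Cpa1 over the 8 arrays, Pearson's r was 0.923 for Reg1 (exact permutation p = 0.00136, adjusted over 6 members 0.00409) and 0.926 for Reg3d (exact permutation p = 0.000992, adjusted 0.00409). Spearman's rho was 0.881 (exact permutation p = 0.00724, adjusted 0.0217) and 0.952 (exact permutation p = 0.00114, adjusted 0.00685). Both relations remained without control array 3 and βFbln5KO array 2, the arrays farthest from the median of the acinar mean, at r = 0.888 and r = 0.902. They also remained with the group means removed, at 0.891 and 0.895, and without the array labelled βFbln5KO 4, at 0.920 and 0.925.

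The 4 other detected members followed the acinar enzymes less closely in these values, although the difference between members was not tested. Pearson's r was 0.717 for Reg3a (exact permutation p = 0.0466, adjusted 0.0932) with a Spearman's rho of 0.524 (exact permutation p = 0.197, adjusted 0.324), and r fell to 0.573 without the 2 farthest arrays. For Reg3b, r was 0.542 (exact permutation p = 0.165, adjusted 0.248) and rho 0.500 (exact permutation p = 0.216, adjusted 0.324). For Reg2, r was 0.428 (exact permutation p = 0.292, adjusted 0.350) and rho 0.405 (exact permutation p = 0.327, adjusted 0.327). For Reg3g, r was 0.329 (exact permutation p = 0.409, adjusted 0.409) and rho 0.429 (exact permutation p = 0.299, adjusted 0.327). Without the 2 farthest arrays r was 0.576 for Reg3b, 0.422 for Reg2 and 0.0545 for Reg3g, and with the group means removed it was 0.591 for Reg3a, 0.419 for Reg3b, 0.153 for Reg2 and −0.02 for Reg3g. With the array labelled βFbln5KO 4 left out it was 0.771 for Reg3a, 0.545 for Reg3b, 0.472 for Reg2 and 0.426 for Reg3g. On some arrays the signals of Reg3a, Reg3b and Reg3g in these values were not detected.

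**Figure D3:**
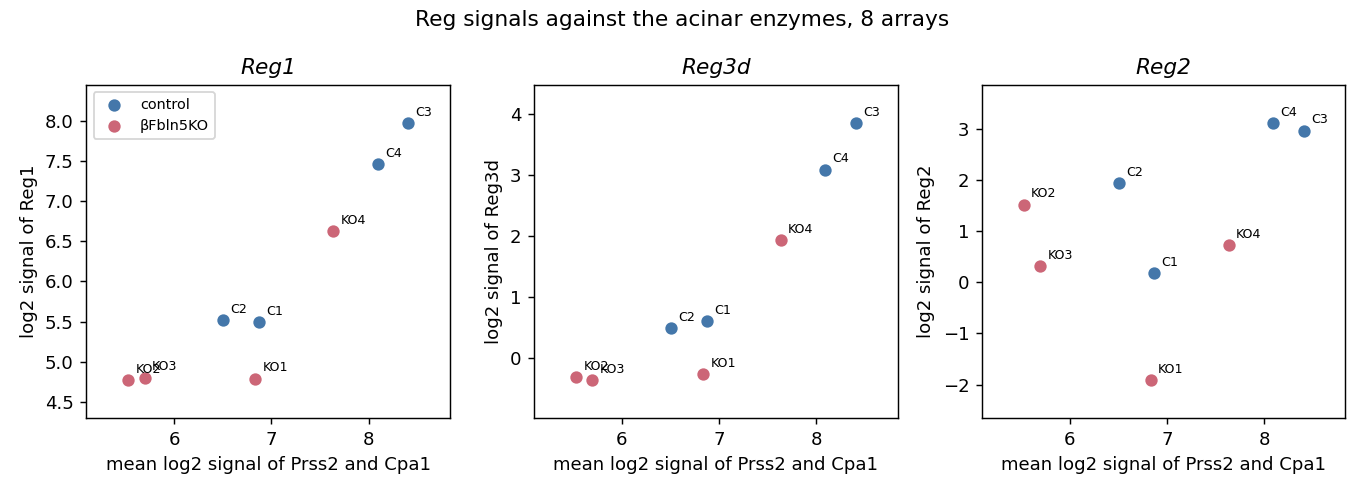
Log2 signals of Reg1, Reg3d and Reg2 against the mean log2 signal of Prss2 and Cpa1, with 1 point per array (blue, control; red, βFbln5KO; C or KO with the replicate number). Pearson's r is 0.923 for Reg1, 0.926 for Reg3d and 0.428 for Reg2, for which KO1 lies lowest and KO2 lies well above it at the lowest acinar mean.

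The genes most like each member were ranked by Pearson's r over the 8 arrays, within 13552 genes, those of the 13650 detected on all arrays that had no outlier-marked value. This is a description, in which all points share the same arrays. Reg3d was the gene most like Reg1, with r = 0.999, followed by Rbpjl, a subunit of the acinar transcription factor complex PTF1, P2rx1, a purinergic receptor channel of acinar cells, Pla2g1b, pancreatic phospholipase A2, and Gamt, an enzyme of creatine synthesis, at r of 0.985 to 0.991. The same 5 places beside Reg3d were held by Reg1, P2rx1, Rbpjl, Gamt and Pla2g1b. Of the 31 acinar genes ranked, 19 were within the 100 genes most like Reg1 and 19 within those most like Reg3d, and their median r was 0.931 and 0.937, beside 0.158 and 0.153 over all genes. For Reg2 none was within the first 100 and the best acinar gene held rank 1284, with a median r of 0.469 beside 0.191 over all genes. Without the array labelled βFbln5KO 4, Reg1 and Reg3d were still most like each other, with 14 and 13 acinar genes within the first 100, and none was within it for Reg2. The genes most like Reg2 were Pcdhb21, a protocadherin, with r = 0.978, then Sptbn4, a spectrin, Lpl, lipoprotein lipase, Cdkl3, a kinase, and Atrx, a chromatin remodeller, at r of 0.970 to 0.972.

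Reg2 was nearer to the inducible members than to Reg1 and Reg3d in these values, although differences between r values were not tested. Its r was 0.882 with Reg3b, 0.83 with Reg3a and 0.810 with Reg3g, against 0.718 with Reg1 and 0.709 with Reg3d. Reg3a was itself nearer to Reg1 and Reg3d, at 0.868 and 0.863, than to Reg2. With the group means removed its values were 0.801 and 0.794, against 0.734 with Reg2. Reg3b and Reg3g were nearer to Reg2, with r of 0.757 and 0.554 with Reg1 and of 0.743 and 0.535 with Reg3d. Within the Reg3 genes the highest value was 0.925, for Reg3a with Reg3b, which was also 0.925 with the group means removed. These genes were low on replicate 1 of both groups and high on control array 4. For Reg3a, Reg3b and Reg3g these values include signals below the detection limit, those of Reg3a and Reg3b on replicate 1 of both groups among them. With the array labelled βFbln5KO 4 left out, Reg2 had an r of 0.894 with Reg3b, 0.827 with Reg3a and 0.817 with Reg3g, against 0.761 with Reg1 and 0.745 with Reg3d, and Reg3a had 0.936 with Reg3b. Without that array Reg3a had 0.913 with Reg1 and 0.902 with Reg3d, again above its value with Reg2.

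The 6 members other than Reg4 are neighbours on chromosome 6 of GRCm38, where the cluster runs from the start of Reg3b at 78370885 through Reg3d, Reg3a, Reg2 and Reg1 to the end of Reg3g at 78468874, while Reg4 lies on chromosome 3 at 98222138-98236748. Reg1 lies at 78425983-78428668, Reg2 at 78405155-78408099, Reg3a at 78380709-78383839, Reg3b at 78370885-78373466, Reg3d at 78375874-78378865 and Reg3g at 78466269-78468874. The 250 bases before the annotated start of RefSeq in GRCm38.p6 were found for all 7 members and for Prss2 and Cpa1. For Reg4 the start given with that sequence lies a few bases inside the gene as placed above. Below they are shown 5′ to 3′ for Reg1 and Reg3d, whose signals moved together and with the acinar enzymes, for Reg2 and Reg3b, which moved together and less closely with these, and for Prss2. Capitals mark 3 motifs, searched on both strands and chosen after these promoters had been seen. They are the E-box CACCTG and the TC-box core TGGGAA, which are letters of the kind that the PTF1 complex binds as a pair, and the STAT motif TTCNNNGAA, since Stat3 is known to induce Reg genes downstream of IL-6 family cytokines.
Reg1 (chr6:78425733-78425982, plus strand): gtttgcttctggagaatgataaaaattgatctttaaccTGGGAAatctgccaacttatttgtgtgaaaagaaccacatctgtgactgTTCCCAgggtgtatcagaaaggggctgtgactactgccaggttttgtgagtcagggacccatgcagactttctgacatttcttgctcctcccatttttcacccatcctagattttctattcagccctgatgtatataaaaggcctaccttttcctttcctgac
Reg3d (chr6:78378866-78379115, minus strand): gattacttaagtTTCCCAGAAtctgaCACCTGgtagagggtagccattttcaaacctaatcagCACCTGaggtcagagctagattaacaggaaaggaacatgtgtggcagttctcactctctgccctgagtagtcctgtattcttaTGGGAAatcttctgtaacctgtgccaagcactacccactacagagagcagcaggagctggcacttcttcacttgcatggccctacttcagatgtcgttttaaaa
Reg2 (chr6:78404905-78405154, plus strand): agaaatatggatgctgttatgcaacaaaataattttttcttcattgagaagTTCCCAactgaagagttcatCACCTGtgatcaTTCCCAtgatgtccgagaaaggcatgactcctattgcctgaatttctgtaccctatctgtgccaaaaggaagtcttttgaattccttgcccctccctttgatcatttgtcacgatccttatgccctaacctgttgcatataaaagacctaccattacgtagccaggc
Reg3b (chr6:78370635-78370884, plus strand): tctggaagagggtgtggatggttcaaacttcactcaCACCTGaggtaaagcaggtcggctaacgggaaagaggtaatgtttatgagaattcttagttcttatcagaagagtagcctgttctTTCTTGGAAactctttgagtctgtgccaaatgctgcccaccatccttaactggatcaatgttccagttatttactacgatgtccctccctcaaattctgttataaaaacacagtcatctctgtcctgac
Prss2 (chr6:41521526-41521775, plus strand): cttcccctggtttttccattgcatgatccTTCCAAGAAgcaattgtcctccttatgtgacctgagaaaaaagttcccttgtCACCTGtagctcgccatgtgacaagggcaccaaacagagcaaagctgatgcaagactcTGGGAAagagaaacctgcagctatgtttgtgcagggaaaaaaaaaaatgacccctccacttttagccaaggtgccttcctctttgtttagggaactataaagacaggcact

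The TC-box core was present in 5 of the 7 Reg windows, with 2 matches each in Reg1 (212 and 163 bases before the start), Reg3d (238 and 104), Reg2 (199 and 167) and Reg3g, 1 in Reg3a, and none in Reg3b or Reg4. It is found in 21.6% of 32851 promoter windows of the same length. The E-box was present in 5 of 7, in Reg2, Reg3a, Reg3b and Reg4 once and in Reg3d at 2 places, but not in Reg1, Reg3g or Cpa1, and in 17.2% of all windows. The STAT motif was present in Reg3b, 129 bases before the start, in Reg3d, where it overlaps a TC-box core, and in Prss2, and in 7.02% of all windows. A match is a run of letters in this window and not a measured site. The E-box and the TC-box core occurred together in Reg2, Reg3a and Reg3d, as in Prss2, counted without regard to spacing or strand. A relation of these letters to the signals was not tested.

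Relative to the mean of Prss2 and Cpa1 on each array, in place of the 75th percentile, every difference is taken from that of this mean (−1.04), so that a smaller size is a property of the scale. The log2 difference was −0.32 for Reg1 (exact permutation p = 0.457), −0.71 for Reg3d (exact permutation p = 0.257) and −0.84 for Reg2 (exact permutation p = 0.514). It was −0.80 for Reg3a, −0.38 for Reg3b and −0.47 for Reg3g, with exact permutation p-values of 0.343, 0.743 and 0.686. None had an unadjusted limma p under 0.05, on a scale that moved the median of all genes from 0.02 to 1.07. On it 0.00873% of all genes were called lower and 7.48% higher, so that a count of 0 lower was nearly set by the scale. The differences without the array labelled βFbln5KO 4 were −0.37 for Reg1, −0.87 for Reg3d, −0.62 for Reg2, −0.58 for Reg3a, −0.32 for Reg3b and −0.05 for Reg3g. The values of Reg3a and Reg3g rest on undetected βFbln5KO signals. On this scale the values of Reg1 spanned 1.61 over the 8 arrays, against 3.19 before, those of Reg3d 2.54 against 4.20, and those of Reg2 4.73 against 5.01.

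**Figure D4:**
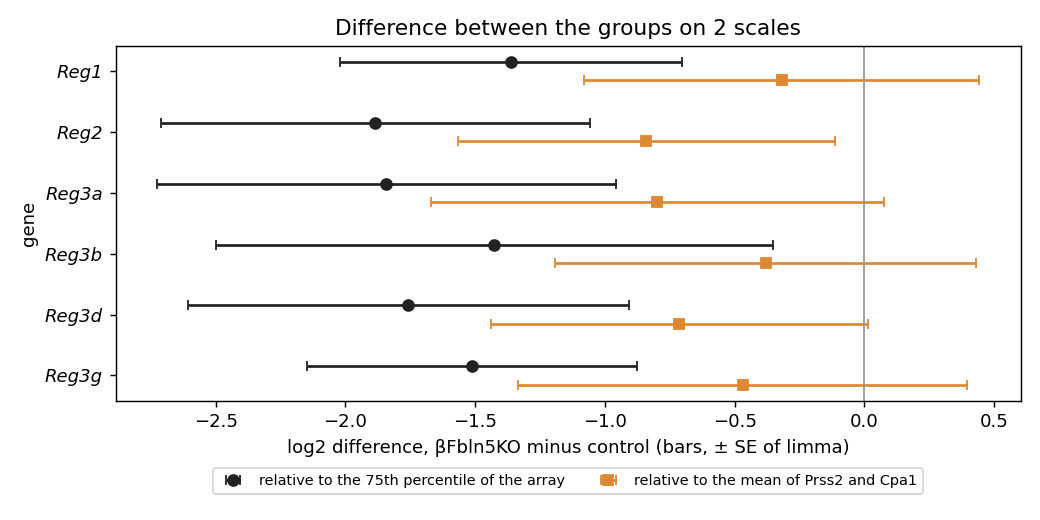
Log2 difference of βFbln5KO minus control for the 6 Reg members detected on at least 1 array, with limma's SE as bars, relative to the 75th percentile of each array (black circles) and to the mean of Prss2 and Cpa1 (orange squares), with Reg3a and Reg3g not detected on any βFbln5KO array. The second scale shifts all genes alike and puts the differences between −0.84 for Reg2 and −0.32 for Reg1.

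The slide carried the arrays in 2 rows of 4, with the replicate number as the column. Within a column, the βFbln5KO array was below the control array in 4 of 4 columns for Reg1 (−3.17 to −0.70), Reg2 (−2.65 to −0.42), Reg3d (−4.20 to −0.81) and Reg3g, whose βFbln5KO signals were all undetected. It was lower in 3 of 4 columns for Reg3a, Reg3b and Prss2 and in 4 of 4 for Cpa1. In column 1, where the mean of Prss2 and Cpa1 differed by −0.04, Reg1 differed by −0.70, Reg3d by −0.87 and Reg2 by −2.08, while Reg3a, Reg3b and Reg3g were detected on neither array of that column. In column 2 the acinar mean differed by −0.98, Reg1 by −0.75, Reg3d by −0.81 and Reg2 by −0.42. The values were −2.71, −3.17, −4.20 and −2.65 in column 3 and −0.46, −0.84, −1.16 and −2.38 in column 4, in the same order. The acinar mean thus differed less than Reg1 and Reg3d in columns 1, 3 and 4 and more in column 2.

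Genes through which Reg expression is known to be induced, or through which Reg proteins may act, were read from a list of 25, with IL-6, IL-22 and interferon-γ receptors, Jak and Stat proteins and their targets, and Extl3, a candidate Reg receptor. Of these, 20 were detected on all 8 arrays. None of the 25 was called by limma at an unadjusted p under 0.05, against 2.68% of all genes called lower and 16.8% called higher. Of the genes detected on all 8 arrays, 3.08% were called lower and 1.01% higher. The median difference was 0.01 over all 25 and −0.008 over the 20. The brightest, the phosphatase Ptpn11, the cyclin Ccnd1 and the IL-6 receptor Il6ra, differed by −0.007, 0.02 and 0.11. Of genes chosen after their values had been seen, Socs3, a Stat3 target, was at 0.30 (unadjusted limma p of 0.0544, limma adjusted p = 0.214), Stat3 itself at −0.15 (limma adjusted p = 0.465), Il6st, the shared receptor subunit gp130, at −0.14 (limma adjusted p = 0.270) and Extl3 at −0.06 (limma adjusted p = 0.780). Il6 and Lif, both cytokines, were detected on none of the arrays. Without the array labelled βFbln5KO 4, 3 genes of the list were called higher, against 19.1% of all genes. They were Socs3, Osm, a cytokine detected on 2 arrays, and Il22ra1, the IL-22 receptor, detected on 6, so that its difference has no exact size. Il22ra1 had a limma adjusted p of 0.0397, in a setting where 16.4% of all genes passed the adjusted threshold.

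Markers of other cells were read for the same arrays. The differences of the beta, delta, endothelial, macrophage and mesenchymal lists had medians of −0.09, −0.10, 0.003, −0.05 and −0.13, with no gene called, and Ppy, the marker of PP cells, was at −0.003. For 2 of the 10 beta markers, Iapp (−0.13) and Slc30a8 (−0.11), all βFbln5KO arrays lay below all controls, against 1.76% of all genes. No delta, endothelial, macrophage or mesenchymal marker showed this. Of 9 ductal markers 1 was called lower, Onecut1, a transcription factor detected on only 5 arrays (limma adjusted p = 0.115), so that its difference has no exact size, and the list median was −0.28, against 2.68% of all genes called lower. No neutrophil marker was detected on any array, and 2 of 4 T cell markers were detected on all 8, with medians of 0.47 and 0.32 over dim and detected genes together and of −0.07 over the 2 detected T cell markers. The genes of these lists called higher, Ngp, S100a8 and Cd3g, were detected on no array, and 16.8% of all genes were called higher. In an acute response list of 14 genes, 4 were detected on all 8 arrays, none was called lower, and the 2 called higher, Il1rn and Saa3, were detected on 1 array and on none. The median of that list was 0.24 over dim and detected genes together, with Fgb, Fgg and Hp high only on the array labelled βFbln5KO 4, and −0.07 over the genes detected on all arrays.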

How the data were processed

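Each islet RNA was hybridised to a one-colour Agilent array, with 4 arrays per group. The authors deposited, for each array, the processed intensity of Agilent Feature Extraction 11.0.1.1, after background subtraction and detrending and not normalized between arrays, with flags for outliers and background. They also deposited a table of ratios, in which every signal of an array had been divided by the same number (at least 99.18% of values within 0.01%). Here log2 intensities of 59305 spots were shifted by each array's 75th percentile (709 to 1055), outlier-marked values (0.356%) were left out, and replicate spots were averaged. The share of spots well above background was lower on every βFbln5KO array (52.63% to 56.57%) than on every control array (56.64% to 58.83%), and the number of arrays limits the precision. Symbols came from RefSeq accessions for 32994 probes. Each gene was reported by its brightest probe. Groups were compared with limma 3.58.1 (lmFit, eBayes with trend; R 4.3.3), p-values were adjusted over 56605 probes by Benjamini-Hochberg with a threshold of 0.05, and exact permutation tests of single values were two-sided. The script was tested on simulated data. All Reg members, Fbln5, Prss2 and Cpa1 were named, with the 5 genes most like each fully detected member, the called genes of each list, and the brightest of the acinar and pathway lists. Other genes of those lists were chosen after their values were seen, and the alpha cell list is not reported here. The members and lists were chosen with earlier results of these data known. The alternatives were other background corrections, scales, filters, probe choices and tests, the deposited table, a replicate block, and leaving out each array.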

Additional observations from a re-analysis of the deposited data

Results flagged for a closer look

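The array labelled βFbln5KO 4 was far from the other βFbln5KO arrays for Reg1 (log2 signal 6.63, against 4.78 to 4.80) and for Reg3d (1.92, against −0.36 to −0.27). Its gap to the nearest other array, divided by the range of the 4 arrays, was 0.986 for Reg1 and 0.960 for Reg3d, both above Dixon's critical value for 4 values. In all, 16 groups of 4 arrays were checked and 2 passed, at a chance rate of 0.05 per group. On the same array the mean of the acinar list was 6.05, against 4.00 to 5.11 on the other βFbln5KO arrays, the mean of the hepatocyte list was 1.33, and the log2 signal of Fbln5 was −1.37. The part of these in the Reg1 and Reg3d signals was not tested.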

How the results depend on the processing

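The log2 differences of Reg1, Reg2, Reg3a, Reg3b, Reg3d, Reg3g, Prss2 and Cpa1 were below 0 with an adjusted p above 0.05 in every alternative run, with adjusted p-values from 0.0730 to 1, and Prss2 and Cpa1 were not run on their own scale. Those of Reg1, Reg2 and Reg3d ranged from −2.51 (Reg2 without control array 1) to −0.32 (Reg1 relative to Prss2 and Cpa1, a scale that shifts all genes alike). The number of Reg members called at an unadjusted p under 0.05, 3 in the fit of the report, was 4 with normexp (Reg2, Reg3a, Reg3d and Reg3g, all lower, against 3.86% of all genes). It was 0 with quantile normalization, where 2.59% of all genes were called lower and 2.07% higher. Relative to Prss2 and Cpa1 it was also 0, on a scale where only 0.00873% of all genes were called lower and 7.48% higher. It was 1 with the filter to probes detected on at least 4 arrays (Reg2), with a common floor on dim signals (Reg3g), without the trend (Reg4), in the methods' t-test (Reg4) and in the deposited table (Reg3g). Only 4 members entered under that filter, and 4 from the table. Over the arrays left out in turn the number called ranged from 1 to 7, where 2.09% to 3.5% of all genes were lower and 15.9% to 19.1% higher. It was 7 without control array 1, of which 6 were lower, against 2.74% of all genes. After adjustment the count ranged from 0 to 1, and was 1 only without the array labelled βFbln5KO 4. The member was Reg4 (limma adjusted p = 0.00502), not detected on any array, in a setting where 16.4% of all genes passed. Of the acinar genes, 2 in the report, 7 were called with normexp, against 3.86% of all genes called lower. The count was 5 with that filter (3.56% of all genes lower) and in the deposited table (3.22%, with 29 acinar genes entered). It was 1 with quantile normalization (2.59%), the median in place of the 75th percentile (1.68%), the floor (2.11%) or no trend (2.6%). It was 0 in the methods' t-test (2.75%) or relative to Prss2 and Cpa1 (0.00873%). Arrays left out gave 0 to 23, with 23 without the array labelled βFbln5KO 4 (2.74% of all genes lower) and 18 without control array 2 (3.5%). It was 0 without control array 3 or 4 or βFbln5KO array 2 or 3. Of the Reg pathway genes, 0 in the report, 1 was called with the median (Socs3, higher, against 17.4% of all genes) and in the deposited table (Socs3, higher, 1.41%). With the mean over a gene's probes 1 was called (Stat3, lower, 2.92%). There were 2 relative to Prss2 and Cpa1 (Il22ra1 and Osm, higher, 7.48%), and 0 to 3 with arrays left out. The replicate numbers share no stated source, and same-numbered arrays deviated together with r of 0.204, 0.355, −0.256 and −0.05. With the replicate block, 6 Reg members (all but Reg4), 14 acinar genes and 1 pathway gene were called without adjustment, against 2.89% of all genes lower and 14.7% higher, and the Reg members had an adjusted limma p of 0.219. With 4 arrays per group and signals of Reg3a, Reg3g and Reg4 at or under the detection limit, differences of these 3 have no measured size in βFbln5KO. The causes of these shifts were not tested.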

Other observations

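The transcripts of hepatocytes on the array labelled βFbln5KO 4 had these values, for genes chosen after they had been seen. Ahsg, fetuin A, had a log2 signal of 2.88 on that array and between −6.88 and −4.53 on the 7 others, on none of which it was well above background. Cyp2e1, a cytochrome of the liver, was at 3.08 against −7.13 to −4.91, and the fibrinogen chains Fga, Fgb and Fgg at −0.83, 1.30 and 1.74 against signals no higher than −5.35 elsewhere. Serpina1a, an antitrypsin gene, was detected on all arrays and was at 4.90 against −1.73 to −1.02. Hp, haptoglobin, which is also an acute phase gene, was at 0.85 against −6.37 to −5.04. Of the 16 hepatocyte genes, Apoc3 alone was not highest on that array.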
